A study of Mus musculus with 12 samples.

Results

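The chitinases and chitinase-like proteins of the mouse lung were followed through 7 genes, chosen by current or older symbol: Chil1 (Chi3l1), Chil3 (Chi3l3), Chil4 (Chi3l4), Chia1 (Chia), Chit1, Ctbs and Chid1. They are read by 11 probe sets of 45037, and are 7 of 18193 genes with a probe set of their own. Ctbs has 3 probe sets and Chid1 has 2, Chil1, Chil3, Chil4, Chia1 and Chit1 have 1 each, and 1 further probe set is shared by Chil3 and Chil4. The study profiled whole lungs of C57BL/6 mice on 12 Affymetrix arrays, 3 in each of 4 groups, 21 days after a single agent had been delivered into the airways through the trachea. The groups were FIZZ2 knockout (KO) given bleomycin, FIZZ2 knockout given saline, wild type (WT) given bleomycin and wild type given saline. FIZZ2 is RELM-beta, a secreted resistin-like protein encoded by Retnlb, and bleomycin is a DNA-breaking drug used in mice to injure and scar the lung. All lungs had been flushed with PBS before RNA extraction. The labels give no age and no construct for the knockout allele, and do not say whether each replicate is its own animal. The p-values therefore reflect the spread between these samples, which may be technical.

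Enzymes of this family cut chitin, a polymer of N-acetylglucosamine that mammals do not make but inhale with fungi, mites and insects. Chia1, the acidic mammalian chitinase, and Chit1, chitotriosidase, are secreted and active. The chitinase-like proteins keep the fold of the enzyme but have lost its activity: Chil1 (YKL-40, BRP-39) is a secreted factor linked to tissue remodelling, and Chil3 (Ym1) and Chil4 (Ym2) are rodent proteins made by macrophages and airway epithelium, known as markers of type 2, interleukin-4 and interleukin-13 driven, responses. Ctbs, di-N-acetylchitobiase, is a lysosomal enzyme that splits the chitobiose core of N-glycans. Chid1 encodes SI-CLP, which binds the macrophage receptor stabilin-1.

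In the gene table of the GRCm38.p6 assembly Chit1 and Chil1 are neighbours on chromosome 1, and Chia1, Chil3 and Chil4 follow each other on chromosome 3, with 0 protein-coding genes between neighbours in both clusters. One of the probe sets is paired with both Chil3 and Chil4 and does not separate them. Their promoter windows in RefSeq (GRCm38.p6, minus strand) are shown because the 2 genes lie side by side and share a probe set. The Chil4 stretch ends at the annotated start, and the Chil3 stretch, cut to match it, runs 28 bases past the annotated start. Capitals mark the letters TTCNNNGAA, a palindrome of the kind that STAT factors bind, and TATAAA.
Chil3, chr3:106167537-106167786: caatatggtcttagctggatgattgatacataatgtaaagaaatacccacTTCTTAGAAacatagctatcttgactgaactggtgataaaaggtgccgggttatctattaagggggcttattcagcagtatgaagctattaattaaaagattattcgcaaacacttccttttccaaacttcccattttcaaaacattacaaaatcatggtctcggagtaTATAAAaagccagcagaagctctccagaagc
Chil4, chr3:106219480-106219729: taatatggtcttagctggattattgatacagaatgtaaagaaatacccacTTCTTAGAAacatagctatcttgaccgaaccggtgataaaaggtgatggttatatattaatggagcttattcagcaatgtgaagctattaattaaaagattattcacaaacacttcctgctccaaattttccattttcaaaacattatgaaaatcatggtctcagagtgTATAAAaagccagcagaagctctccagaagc
Over the 273 aligned columns of the full 300-base windows, 251 were identical, 20 differed and 2 held a gap (91.9% identical). Both held TTCTTAGAA and TATAAA, with TATAAA beginning at -3 from the annotated start in Chil3 and at -31 in Chil4. The palindrome TTCNNNGAA, searched on both strands, occurs in 8.30% of 32851 promoter windows of 300 bases and TATAAA in 13.6%, so both are also found elsewhere.

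The data were log2 values summarised per probe set by the authors. Array medians lay between 5.58 and 5.67, and arrays of the same group correlated at 0.988 to 0.997 across probe sets. Sftpc, the defining surfactant gene of alveolar type 2 cells, was high throughout and lay between 13.97 and 14.24 on all 12 arrays. The probe set of Retnlb, the targeted gene, was dim on every array, with log2 values between 3.49 and 4.13, so it gave no check of the genotype labels. Several arrays stood apart. In WT bleomycin replicate 1 the summed level of 13 alveolar type 2 markers was 15.89 (log2 of the sum), against 16.38 at the highest in that group and 16.46 to 16.49 in WT saline. WT saline replicate 1 carried 5 genes, among them the odorant-binding Obp1a and Obp2a, at 3.22 to 3.67 log2 units above the next highest array. WT bleomycin replicate 2 carried Chil4 at 4.45 log2 units above the next highest array, the largest such excess among 18193 genes. Values of the family and counts of gene lists are also given without one of these arrays where leaving it out ended or made a call or moved a count or called value by over 1.5 times.

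After bleomycin the family moved in WT lungs and in both directions. Chil1 and Chia1 fell, while the shared Chil3 and Chil4 probe set, 1 of 3 Ctbs probe sets and 1 of 2 Chid1 probe sets rose. In KO lungs 0 of the 11 probe sets passed the test, beside 1.74% of all probe sets, so that count is near the background. The test of the difference between the responses also called 0 of them, beside 1.98% of all probe sets. After bleomycin Chil1 and Chia1 stood higher in KO than in WT. Of 11 probe sets, 5 passed at a Benjamini-Hochberg adjusted p under 0.05 in WT (limma), 3 higher and 2 lower, beside 18.5% of all probe sets called in either direction, 9.37% higher and 9.16% lower. Without WT saline replicate 1 or 2 the count was 2, and without WT bleomycin replicate 1 it was 3. The median change of the 11 probe sets in WT, of which 3 read Ctbs and 2 read Chid1, was 0.30, beside -0.04 over all probe sets. Bleomycin and saline arrays did not overlap for 7 of the 11 in WT, beside 32.9% of all probe sets. Of these, 4 lay above, beside 13.9%, and 3 below, beside 19%.

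**Figure D1:**
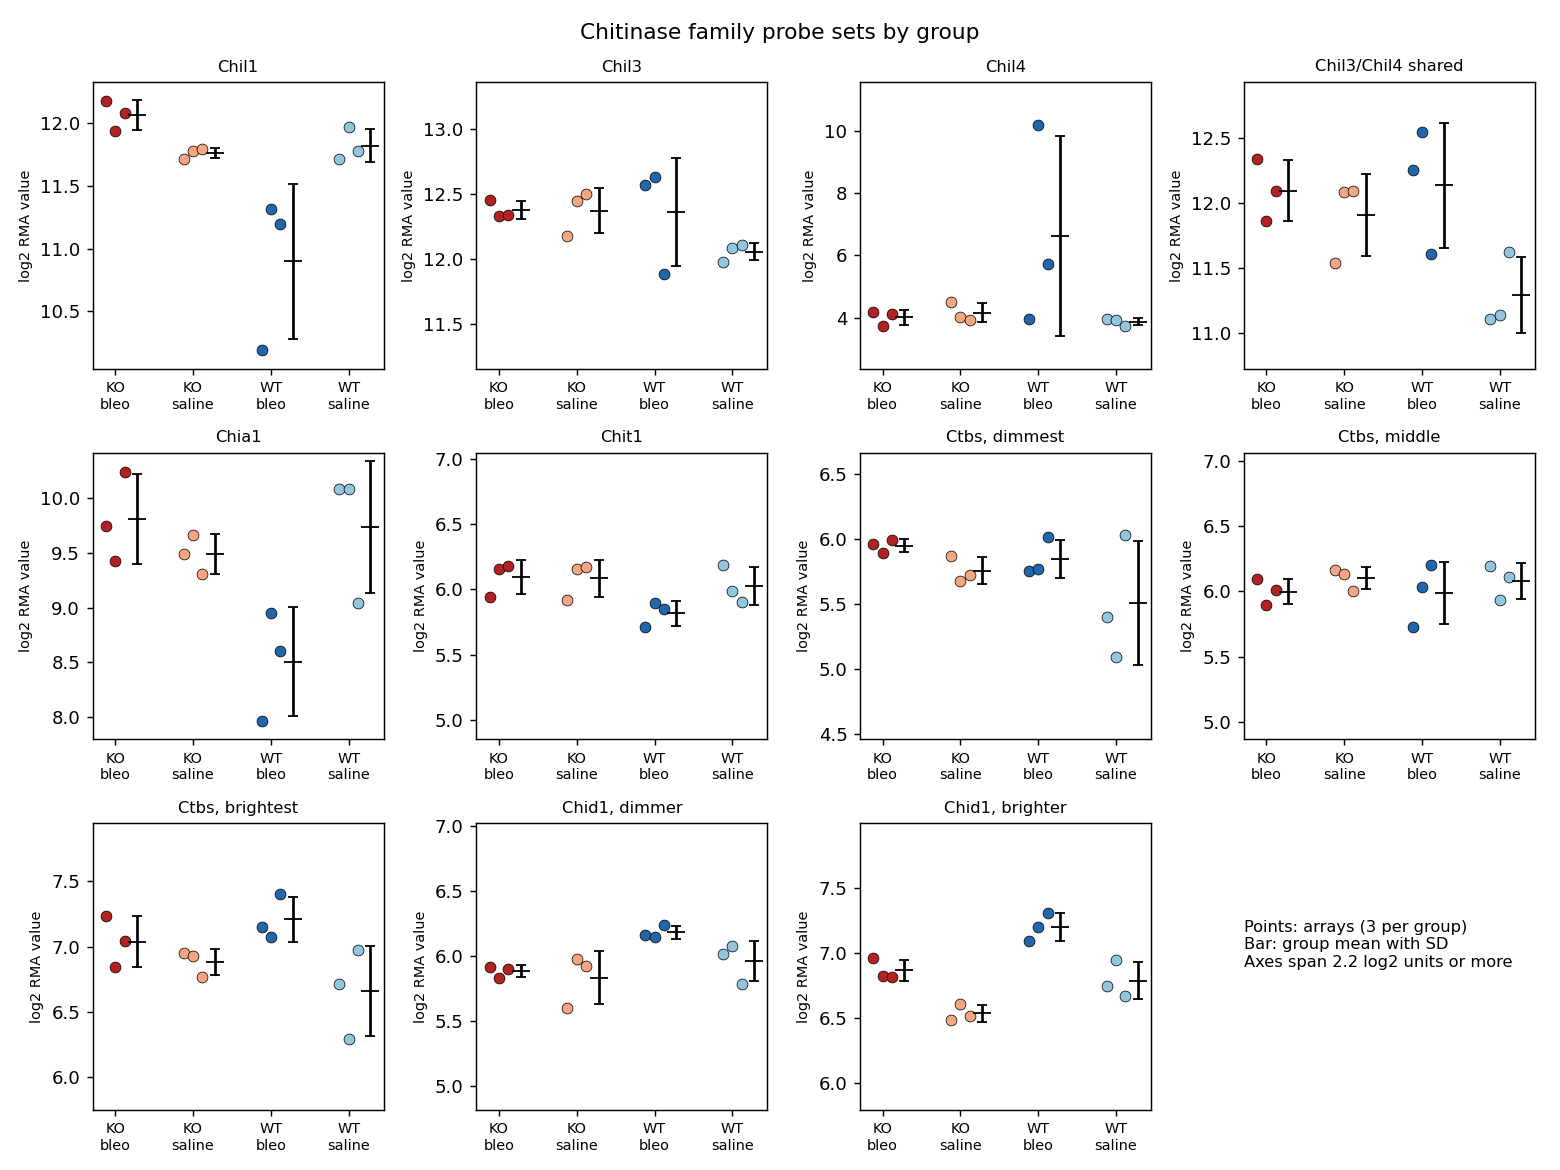
Log2 RMA value (vertical axis) of each of the 11 probe sets on each array (points), by group, with the group mean and SD as bars (n = 3). The 3 WT bleomycin arrays lie below all others for Chil1, between 10.19 and 11.31, and Chil4 is near 4 on most arrays but 10.19 on 1 WT bleomycin array.

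Chil1, the secreted chitinase-like factor, was bright on every array. Its log2 values were 12.18, 11.94 and 12.08 in KO bleomycin and 11.71, 11.78 and 11.79 in KO saline. They were 10.19, 11.31 and 11.20 in WT bleomycin and 11.71, 11.97 and 11.78 in WT saline. All WT bleomycin arrays were below all WT saline arrays, and all KO bleomycin arrays were above all KO saline arrays.

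In WT lungs Chil1 averaged 10.90 ± 0.62 after bleomycin and 11.82 ± 0.13 after saline (SD, n = 3 each). It fell by 0.92 on the log2 scale (SE 0.22), 1.89-fold, with an adjusted p of 0.0114. Replicate 1 set much of that size: without it the change was -0.57, still called at an adjusted p of 0.0036. Without WT saline replicate 1 it was -0.97 (adjusted p = 0.0276).

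In KO lungs Chil1 averaged 12.07 ± 0.12 after bleomycin and 11.76 ± 0.042 after saline (SD, n = 3 each), a change of 0.30 ± 0.22 (SE) that did not pass (adjusted p = 0.572). The difference between the KO and WT responses was 1.22 ± 0.31 (SE; 95% interval 0.55 to 1.90), with an unadjusted p of 0.0019 and an adjusted p of 0.0675, so it did not pass. It passed without WT bleomycin replicate 1 (0.87, adjusted p = 0.0139) or WT bleomycin replicate 2 (1.43, adjusted p = 0.0308). After bleomycin itself Chil1 was 2.24-fold higher in KO than in WT (1.16 ± 0.22, SE; adjusted p = 0.00643), and without WT bleomycin replicate 1 the difference was 0.81 (adjusted p = 0.0011). After saline the genotypes lay close together, at 11.76 in KO and 11.82 in WT (adjusted p = 0.958).

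Chia1, the secreted acidic chitinase, also fell in WT. Its log2 values were 9.75, 9.42 and 10.24 in KO bleomycin and 9.49, 9.67 and 9.31 in KO saline. They were 7.97, 8.95 and 8.60 in WT bleomycin and 10.08, 10.09 and 9.04 in WT saline. The WT bleomycin arrays lay below all WT saline arrays and below all KO arrays.

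In WT Chia1 fell by 1.23 on the log2 scale (SE 0.30), 2.35-fold, with an adjusted p of 0.0130. The call was lost without WT bleomycin replicate 1 (-0.96, adjusted p = 0.0567), without WT saline replicate 1 (-1.06, adjusted p = 0.0593) or without WT saline replicate 2 (adjusted p = 0.0505). In KO the change was 0.32 ± 0.30 (SE; adjusted p = 0.688). The difference between the responses was 1.55 ± 0.43 (SE; 95% interval 0.62 to 2.47) with an unadjusted p of 0.0033 and an adjusted p of 0.0875, and passed without WT saline replicate 3 (1.89, adjusted p = 0.0234). After bleomycin Chia1 was 2.46-fold higher in KO than in WT (1.30 ± 0.30, SE; adjusted p = 0.0192), and this call was lost without WT bleomycin replicate 1 (1.03, adjusted p = 0.0846), KO bleomycin replicate 1 (adjusted p = 0.0583) or KO bleomycin replicate 3 (adjusted p = 0.0724).

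By the smallest root mean square difference over the 12 arrays, each gene centred on its own mean, the genes most like Chil1 were Hc (complement C5), at 0.104 log2 units, Etv5, at 0.112, and Elf5, at 0.116, where the SD of Chil1 itself over the arrays was 0.54. Etv5 and Elf5 are epithelial ETS-family transcription factors, and Etv5 is a regulator of alveolar type 2 cells. On the arrays of WT bleomycin Etv5 had 8.46, 9.58 and 9.54, so that replicate 1 was lowest there as for Chil1. Etv5 fell by 0.84 in WT (SE 0.23; adjusted p = 0.0253), and without that array the change was -0.47 (adjusted p = 0.0265). The genes most like Chia1 were Nexmif, Vnn3 and Tmem163, at 0.290, 0.297 and 0.299 log2 units, beside an SD of 0.67 for Chia1. These likenesses describe 12 arrays and carry no test.

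**Figure D2:**
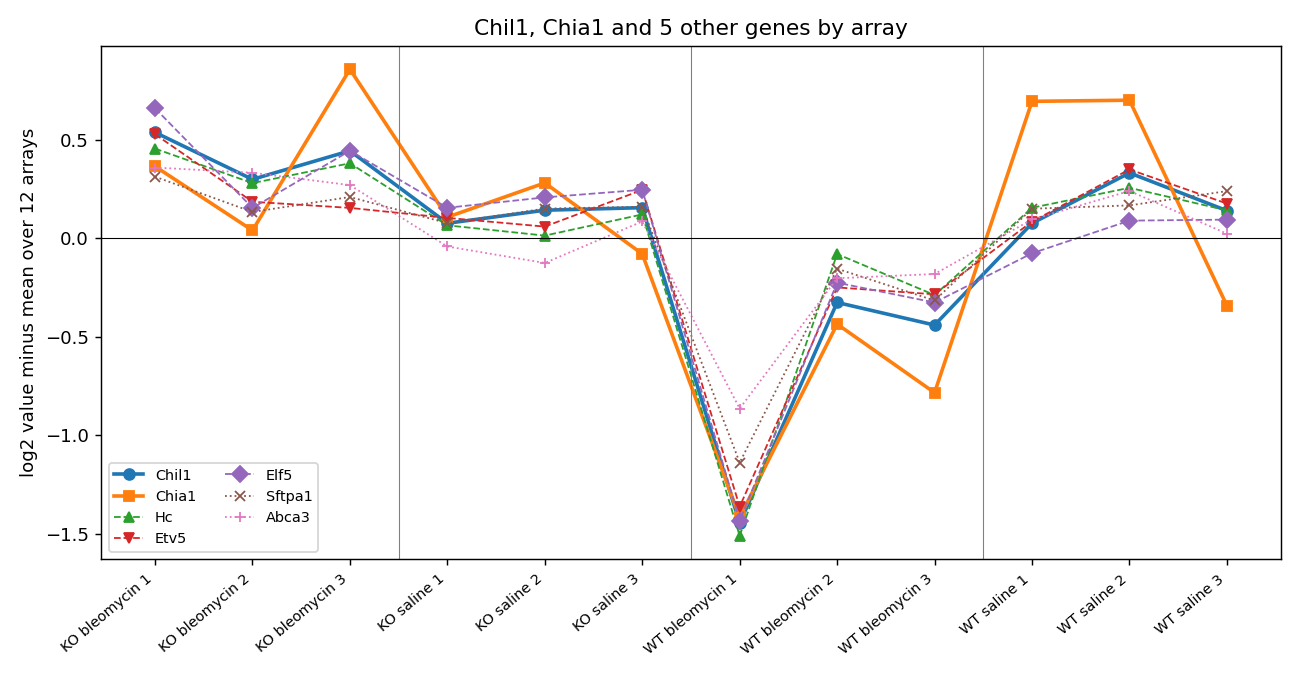
Log2 value minus the gene's own mean over the 12 arrays (vertical axis), by array, for Chil1, Chia1, 3 genes most like Chil1 (Hc, Etv5, Elf5) and 2 alveolar type 2 markers (Sftpa1, Abca3). In WT bleomycin replicate 1 all 7 lines are at their lowest point, and Chil1 and Etv5 run close together throughout.

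In WT the called markers of epithelial cells were all lower, as Chil1 and Chia1 were. In KO Chil1 and Chia1 gave 0.30 and 0.32, neither called, while the club cell and ciliated cell medians were negative. In WT, 4 of 13 alveolar type 2 markers passed, all lower, beside 24.4% of 18193 genes called in either direction and 12.3% lower: Sftpa1 fell by 0.72 (SE 0.19), Etv5 by 0.84, Slc34a2 by 0.56 (SE 0.16) and Abca3 by 0.54 (SE 0.15). Without WT bleomycin replicate 1 the changes were -0.42 for Sftpa1, -0.47 for Etv5, -0.32 for Slc34a2 and -0.31 for Abca3, all still called. Without WT saline replicate 1 only Sftpa1 was called (-0.74, adjusted p = 0.0464). Sftpc, the defining marker, gave -0.12 and was not called. The summed alveolar type 2 level was 16.56 to 16.63 in KO bleomycin, 16.41 to 16.46 in KO saline, 15.89 to 16.38 in WT bleomycin and 16.46 to 16.49 in WT saline. Of 13 club cell markers 8 fell in WT, with a summed level of 15.31 to 15.85 after bleomycin and 16.03 to 16.36 after saline, and 8 of 9 ciliated cell markers fell. In KO none of these 3 lists had a called member, beside 2.12% of genes called, and without WT bleomycin replicate 1 there were 3 alveolar type 2 markers called higher. The KO medians were 0.16 for alveolar type 2, -0.35 for club cell and -0.21 for ciliated cell markers. For the difference between the responses 0 alveolar type 2, 1 club cell and 1 ciliated cell marker were called, beside 2.74% of genes. KO bleomycin stood above WT bleomycin for 5 alveolar type 2, 6 club cell and 7 ciliated cell markers, beside 11.9% of genes called and 5.63% called higher. Without WT bleomycin replicate 1 these counts were 4, 3 and 4, and without WT bleomycin replicate 2 there were 8 alveolar type 2 markers. The part of these markers in the Chil1 and Chia1 results was not tested. In whole lung, fewer cells of a type and less RNA per cell cannot be told apart.

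Chil3 and Chil4 were read by 3 probe sets. The probe set of Chil3 alone was bright and nearly level: its log2 values were 12.46, 12.33 and 12.34 in KO bleomycin and 12.18, 12.44 and 12.50 in KO saline. They were 12.57, 12.63 and 11.89 in WT bleomycin and 11.98, 12.08 and 12.11 in WT saline. WT bleomycin replicate 3 lay below the WT saline arrays, and the other two lay above them.

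Chil3 changed by 0.30 ± 0.16 (SE) in WT (adjusted p = 0.227) and by 0.0039 in KO (adjusted p = 0.995). Without WT bleomycin replicate 3 the WT change was 0.54 and passed (adjusted p = 0.0051). The 3 KO saline arrays lay above the 3 WT saline arrays, with a difference of 0.32 ± 0.16 (SE) and an adjusted p of 0.620.

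The probe set shared by Chil3 and Chil4 had 12.34, 11.86 and 12.09 in KO bleomycin and 11.54, 12.08 and 12.10 in KO saline. It had 12.25, 12.54 and 11.61 in WT bleomycin and 11.11, 11.14 and 11.63 in WT saline. It rose in WT by 0.84 (SE 0.23; 1.79-fold; adjusted p = 0.0241), although WT bleomycin replicate 3 lay within the WT saline range. The call was lost without WT bleomycin replicate 1 (0.78, adjusted p = 0.0773), WT bleomycin replicate 2 (0.64, adjusted p = 0.0956), WT saline replicate 1 (0.75, adjusted p = 0.0890) or WT saline replicate 2 (adjusted p = 0.0745). In KO it changed by 0.19 (adjusted p = 0.779), and the difference between the responses was -0.65 ± 0.33 (SE; adjusted p = 0.335). KO saline stood 0.61 ± 0.23 (SE) above WT saline, which did not pass (adjusted p = 0.488).

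Chil4 alone behaved otherwise. Its log2 values were 4.18, 3.73 and 4.12 in KO bleomycin and 4.51, 4.04 and 3.93 in KO saline, all dim. They were 3.97, 10.19 and 5.74 in WT bleomycin and 3.95, 3.92 and 3.74 in WT saline. A single array, WT bleomycin replicate 2, thus held a strong signal and a second one a moderate signal.

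The WT change of Chil4 was 2.76 ± 1.06 (SE; 95% interval 0.45 to 5.06), with an unadjusted p of 0.0229 and an adjusted p of 0.0951. All 3 WT bleomycin arrays lay above the WT saline arrays, the lowest of them by a narrow margin (3.97 against 3.95). Without WT bleomycin replicate 2 the change was 0.98 (adjusted p = 0.112), and without replicate 1 it was 4.09 and passed (adjusted p = 0.0091). Chil4 differed between KO and WT bleomycin by -2.62 ± 1.06 (SE; adjusted p = 0.168). Without WT bleomycin replicate 2 that difference was -0.84 (adjusted p = 0.241), and without replicate 1 it was -3.95 and passed (adjusted p = 0.0256). In KO it changed by -0.15 (adjusted p = 0.972). On WT bleomycin replicate 2 the shared probe set (12.54) and the Chil3 probe set (12.63) were also at their highest of the 12 arrays.

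**Figure D3:**
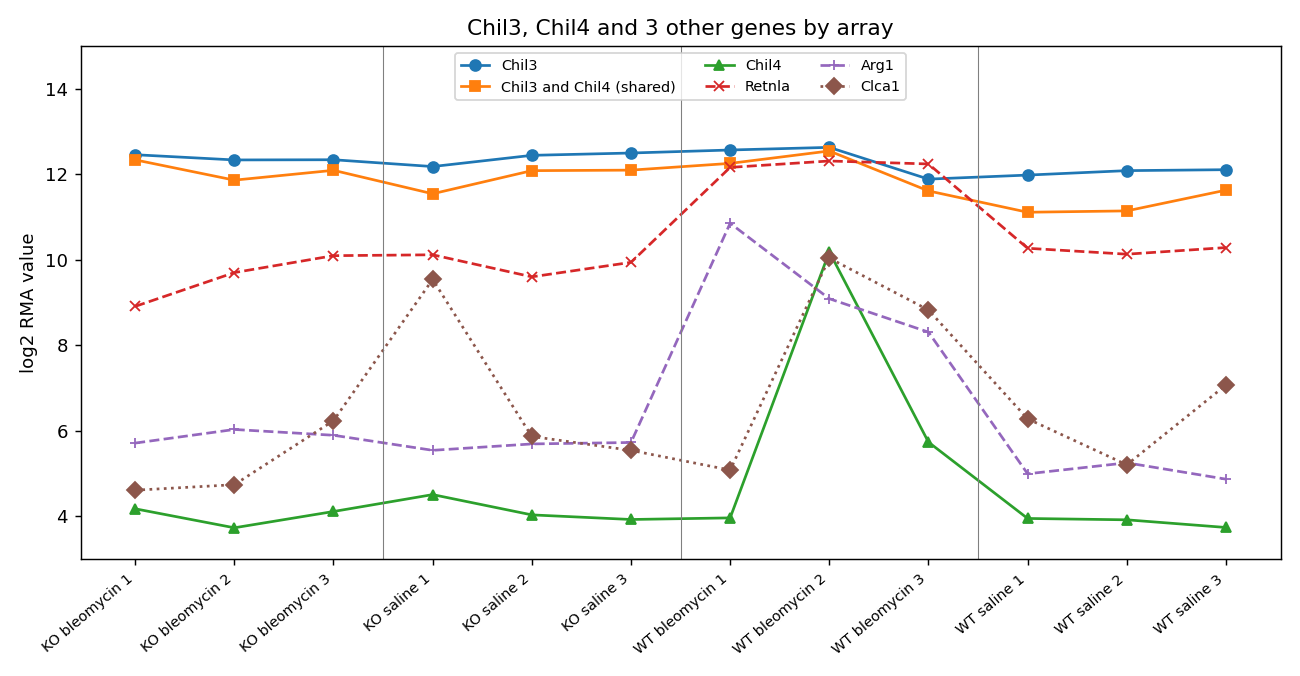
Log2 RMA value (vertical axis) by array for the 3 probe sets of Chil3 and Chil4 and for Retnla, Arg1 and Clca1. Chil4 reaches 10.19 on WT bleomycin replicate 2, where Chil3 stays at 12.63, and Retnla and Arg1 are high on all 3 WT bleomycin arrays.

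Genes of the type 2 programme to which Chil3 and Chil4 belong were read beside them. Of 18 alternative macrophage activation genes 11 rose and 1 fell in WT, beside 12.1% of genes called higher and 12.3% lower, with a median change of 0.96 against -0.04 over all genes: Retnla, a resistin-like relative of FIZZ2, rose by 2.01 (SE 0.23), the arginine-degrading enzyme Arg1 by 4.38 (SE 0.44) and the mannose receptor Mrc1 by 1.29 (SE 0.11). In KO 3 rose, Clec7a, Mrc1 and Msr1, beside 1.47% of genes called higher, and the test of the difference between the responses called 7 lower, including Retnla (-2.33) and Arg1 (-4.15), beside 2.74% of genes called and 1.88% called lower. Without WT saline replicate 1 the test called 4. Retnla had 8.91, 9.70 and 10.10 in KO bleomycin and 10.12, 9.60 and 9.94 in KO saline, against 12.16, 12.31 and 12.24 in WT bleomycin and 10.27, 10.13 and 10.29 in WT saline. Retnla was evenly high over the 3 WT bleomycin arrays, whereas Chil4 was high on 1 and intermediate on another.

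Of 14 genes of interleukin-4 and interleukin-13 signalling 3 rose in WT, beside 24.4% of genes called and 12.1% higher, so the share is near the background: Il4ra by 0.83 (SE 0.14), Jak3 by 0.63 (SE 0.092) and Il13ra1 by 0.60 (SE 0.15). Without WT bleomycin replicate 1 the count was 2. None was called in KO, where 2.12% of all genes were called, so a count of 0 is near that background. After bleomycin 2 of the 14 were lower in KO than in WT, beside 6.27% of genes called lower: Il4ra gave -0.81 (adjusted p = 0.00442) and Jak3 -0.49 (adjusted p = 0.00646), while Il13ra1 gave -0.50 (adjusted p = 0.0614). The cytokine genes Il4 and Il13 were dim in every group. Their WT changes were 0.096 (adjusted p = 0.614) and -0.0022 (adjusted p = 0.992). Clca1, a gene of mucus-secreting airway cells, was high on WT bleomycin replicate 2 as well, with 4.61, 4.74 and 6.24 in KO bleomycin, 9.54, 5.87 and 5.55 in KO saline, 5.08, 10.04 and 8.83 in WT bleomycin and 6.28, 5.21 and 7.07 in WT saline. It did not pass in WT (1.80 ± 1.20, SE; adjusted p = 0.340), and KO saline replicate 1 was also high. Clca1 was picked after these values had been seen. The airway mucin gene Muc5ac showed no rise of that size. It lay between 5.12 and 5.66 in WT bleomycin and between 5.27 and 5.48 in WT saline (change -0.04, adjusted p = 0.850).

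Markers of cells that can make Chil3, and of other cell types, were also read. The probe set of Chil3 alone was not called in any contrast of the reported fit. Counts of the marker lists stand beside 12.1% of genes called higher and 12.3% lower in WT, and 2.12% called in KO. Of 14 alveolar macrophage markers 6 rose and 4 fell in WT, and their summed level was 13.33 to 13.36 in WT bleomycin and 12.76 to 12.78 in WT saline. The level was 13.04 to 13.33 in KO bleomycin and 12.89 to 13.06 in KO saline. Of 13 macrophage and monocyte markers 11 rose in WT and 6 in KO, and of 10 lipid-associated macrophage markers 8 rose in WT and 5 in KO. Chil3 is also made by neutrophil precursors, and 5 of 12 neutrophil markers were higher in KO than in WT after saline, beside 0.297% of genes called and 0.159% called higher, with a summed level of 12.94 to 13.40 in KO saline and 11.90 to 12.20 in WT saline. That count was 0 without WT saline replicate 1 and 2 without WT bleomycin replicate 2. Of the 12 neutrophil markers 5 fell after bleomycin in each genotype, and 1 rose in WT. Eosinophil and mast cell markers had 1 of 11 lower in WT and 1 higher in KO. Cardiac muscle markers, which mouse lungs hold around the pulmonary veins, were called lower for 9 of 10 in WT and for 0 in KO. Their median change was -1.83 in WT and -1.22 in KO. The test of the difference between the responses called 0 of them, beside 2.74% of genes. Their summed level was 11.16 to 13.20 in KO bleomycin and 12.93 to 13.62 in KO saline. In WT it was 11.05 to 11.60 after bleomycin and 12.87 to 13.41 after saline. Of 8 adipocyte markers 1 was lower in each genotype (0 in KO without WT saline replicate 1). The part of these markers in the Chil3 results was not tested.

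Chit1, the secreted chitotriosidase of macrophages, stayed at a modest level. Its log2 values were 5.94, 6.16 and 6.18 in KO bleomycin and 5.92, 6.16 and 6.17 in KO saline, and 5.71, 5.89 and 5.85 in WT bleomycin and 6.19, 5.99 and 5.90 in WT saline. The WT bleomycin arrays lay just below the WT saline arrays, by 0.21 ± 0.11 (SE) on average, and the change was not called (adjusted p = 0.199). After bleomycin KO stood above WT without overlap, by 0.28 (adjusted p = 0.142).

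Ctbs, the lysosomal chitobiase, had 3 probe sets that did not move alike. The brightest had 7.23, 6.84 and 7.04 in KO bleomycin and 6.95, 6.92 and 6.77 in KO saline. It had 7.15, 7.08 and 7.40 in WT bleomycin and 6.71, 6.29 and 6.97 in WT saline, so the WT groups did not overlap. It rose in WT by 0.55 (SE 0.16; 1.47-fold; adjusted p = 0.0284), and lost the call without WT bleomycin replicate 1 (0.58, adjusted p = 0.0552), WT bleomycin replicate 3 (0.45, adjusted p = 0.112), WT saline replicate 1 (0.58, adjusted p = 0.0605) or WT saline replicate 2 (0.37, adjusted p = 0.0944). The dimmest gave 0.34 ± 0.18 (SE; adjusted p = 0.222), but 0.60 and a call without WT saline replicate 3 (adjusted p = 0.00415), and the middle one gave -0.09 ± 0.12 (SE; adjusted p = 0.640) in WT. In KO the brightest gave 0.16, the dimmest 0.19 and the middle one -0.10, none called.

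Chid1 encodes the stabilin-1 ligand. The brighter of its 2 probe sets had 6.96, 6.82 and 6.82 in KO bleomycin and 6.48, 6.61 and 6.52 in KO saline. It had 7.09, 7.20 and 7.31 in WT bleomycin and 6.75, 6.95 and 6.67 in WT saline. Its bleomycin arrays lay above its saline arrays in both genotypes: the lowest bleomycin array was 6.82 in KO and 7.09 in WT, and the highest saline array was 6.61 in KO and 6.95 in WT.

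This probe set of Chid1 rose in WT by 0.41 (SE 0.092; 1.33-fold; adjusted p = 0.00740), and the call was kept when any array was left out. In KO it gave 0.33 ± 0.092 (SE), with an unadjusted p of 0.0034 and an adjusted p of 0.0932. The difference between the responses was not called (-0.083 ± 0.13, SE; adjusted p = 0.786). After saline the KO minus WT difference was -0.25 (SE 0.092), with an unadjusted p of 0.0178 and an adjusted p of 0.461 (limma). All 3 KO saline arrays lay below all 3 WT saline arrays, where 15% of all probe sets did not overlap in either direction. After bleomycin the KO minus WT difference was -0.33 (SE 0.092; adjusted p = 0.0427), a call lost when WT saline replicate 1, WT bleomycin replicate 2 or 3, or any single KO array was left out (adjusted p from 0.0573 to 0.142). The dimmer probe set had 5.92, 5.83 and 5.90 in KO bleomycin, 5.60, 5.98 and 5.92 in KO saline, 6.16, 6.15 and 6.24 in WT bleomycin and 6.02, 6.08 and 5.79 in WT saline, and was not called (WT change 0.22, adjusted p = 0.180). The genes most like Chid1 over the arrays were Nasp, Mydgf and Slit2, at 0.0749, 0.0750 and 0.0784 log2 units, and those most like Ctbs were Ube2d3, Hnrnpll and Stau1, at 0.0806, 0.0817 and 0.0840.

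**Figure D4:**
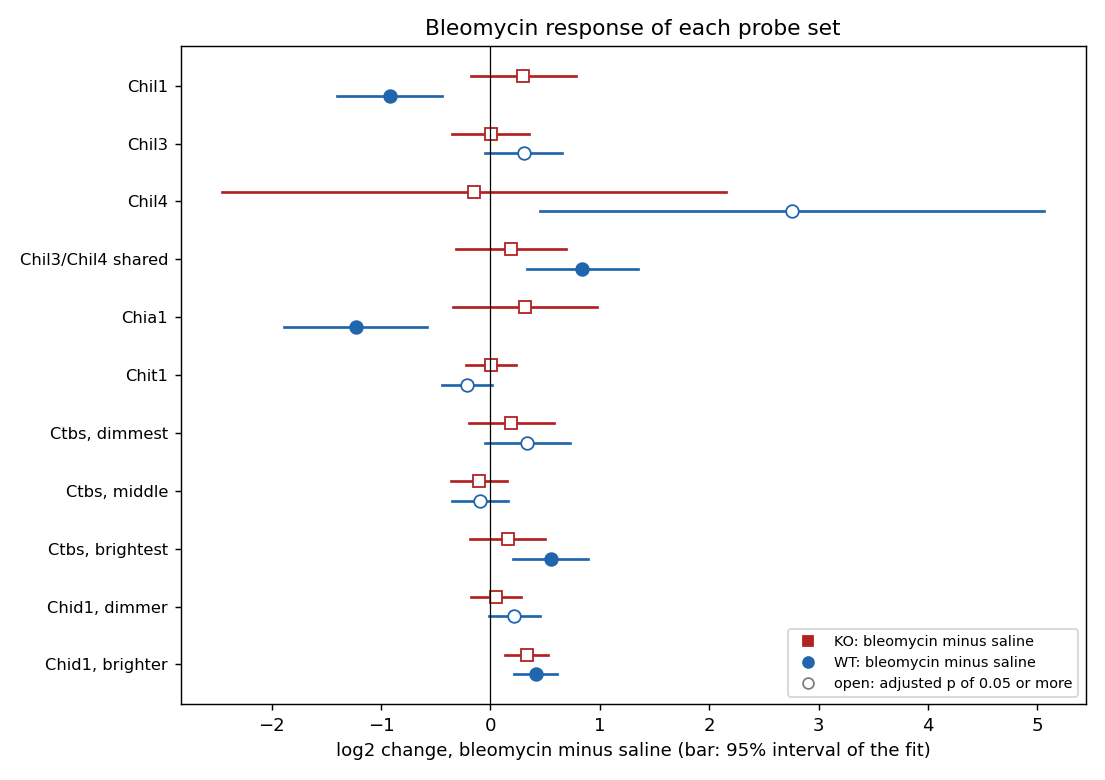
Log2 change of each probe set (horizontal axis), bleomycin minus saline, in KO and in WT, with the 95% interval of the limma fit. Filled markers passed an adjusted p of 0.05: 5 do in WT and 0 in KO, and for Chil1 and Chia1 the KO points lie to the right of zero and the WT points to the left.

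Other lysosomal enzymes that take glycoprotein glycans apart were read beside Ctbs. Of 11 measured, 10 rose in WT, with a median change of 0.46, beside 12.1% of genes called higher. The carboxypeptidase Ctsa rose by 0.95 (SE 0.094), the mannosidase Man2b1 by 0.88 (SE 0.077), the hexosaminidase subunit Hexa by 0.63 (SE 0.10) and the galactosidase Glb1 by 0.62 (SE 0.083). Aga, which cuts the link between glycan and asparagine just before Ctbs acts, rose by 0.31 (SE 0.092; adjusted p = 0.0319). Engase, a cytosolic enzyme, gave -0.16 (adjusted p = 0.344). In KO 4 rose, Man2b1, Hexa, Glb1 and Neu1, beside 1.47% of genes called higher, with a median of 0.31 over the list. Without WT bleomycin replicate 2 or WT saline replicate 1 only 1 rose in KO. The test of the difference between the responses called Ctsa lower in KO (-0.58, adjusted p = 0.0466) and no other member, beside 1.88% of genes called lower. It called 0 without WT bleomycin replicate 1 or WT saline replicate 1, and 2 without WT bleomycin replicate 2.

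**Figure D5:**
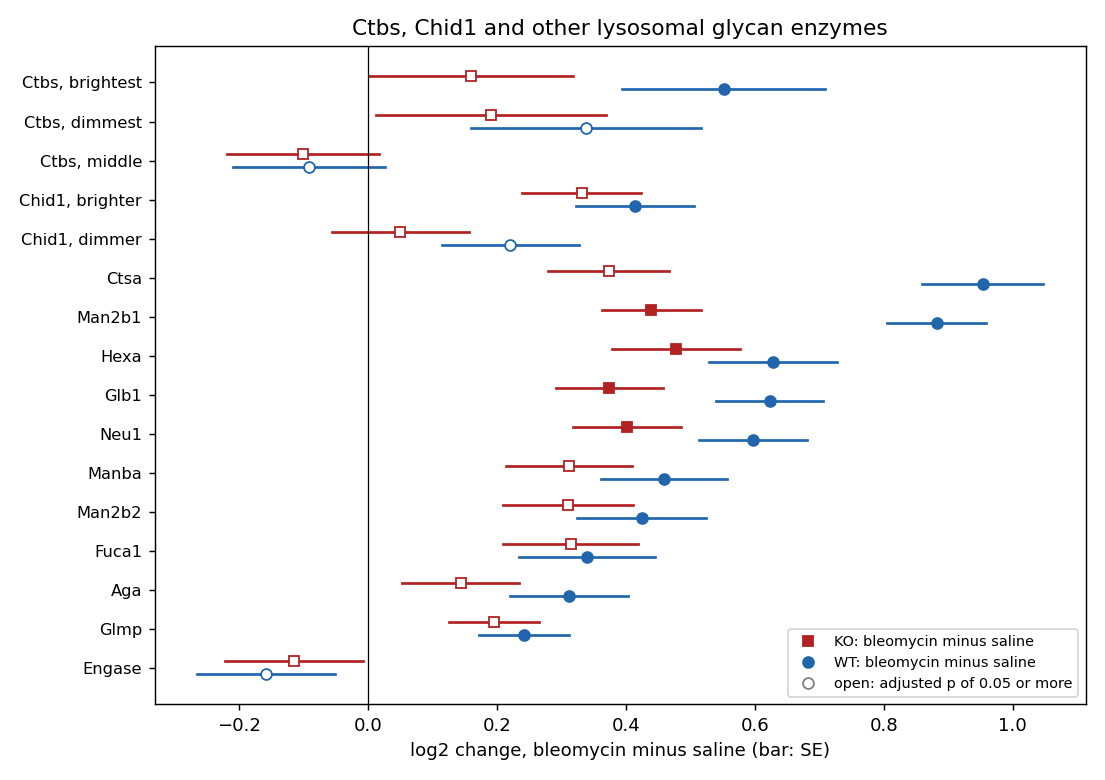
Log2 change, bleomycin minus saline (horizontal axis, bar: SE), in KO and in WT for the probe sets of Ctbs and Chid1 and for 11 other glycan-degrading enzymes, of which Engase is cytosolic. In WT 10 of the 11 enzymes are filled (adjusted p under 0.05) and in KO 4 are, and the called Ctbs and Chid1 probe sets lie within the range of the list.

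Receptors and partners of the chitinase-like proteins were counted last. Of 8, 2 rose in WT, near the background of 24.4% of genes called and 12.1% higher, with a list median of 0.03: Lgals3, galectin-3, by 0.87 (SE 0.10; 1.82-fold) and Cd44 by 0.72 (SE 0.083; 1.65-fold). Stab1, the stabilin that binds the Chid1 product, gave 0.41 (adjusted p = 0.0669). Il13ra2 and Tmem219, which together form a receptor for the Chil1 product, gave -0.24 (adjusted p = 0.0930) and 0.11 (adjusted p = 0.505), and Il13ra2 was dim in every group. Ptgdr2, a prostaglandin D2 receptor also described as binding the Chil1 product, gave -0.11 (adjusted p = 0.646). None was called in KO, where 2.12% of all genes were called, so a count of 0 is near that background. Lgals3 gave 0.44 in KO (adjusted p = 0.0533) and Cd44 gave 0.25 (adjusted p = 0.157). Of the other genes of the same enzyme family, Ovgp1 alone had a probe set of its own, with -0.40 in WT (adjusted p = 0.113; called without WT bleomycin replicate 1), and Chil5 and Chil6 were not analysed here.

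In KO after bleomycin 0 of 11 were called by limma, beside 1.74% of all probe sets, and 1 had an unadjusted p under 0.05. Bleomycin arrays did not overlap saline arrays for 3 of the 11 in KO, beside 23.9% of all probe sets, and all 3 lay above, beside 12.2%. For the difference between the responses 0 were called, beside 1.98%, and 2 had an unadjusted p under 0.05, Chil1 and Chia1. Between KO and WT after saline 0 were called, beside 0.218%, and 2 of the 11 did not overlap, beside 15% of all probe sets. There 2 had an unadjusted p under 0.05, the shared Chil3 and Chil4 probe set and the brighter Chid1 probe set. Between KO and WT after bleomycin 3 of 11 were called, 2 higher and 1 lower, beside 8.36% of all probe sets (3.66% higher and 4.7% lower), and 5 of the 11 did not overlap, beside 26.7%. Without KO bleomycin replicate 1 or 3 only 1 was called. These comparisons share their groups, so they are not independent of each other.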

How the data were processed

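Each of 12 samples of mouse lung RNA had been hybridized as biotinylated cRNA to 1 Affymetrix array. The deposited values are log2 RMA summaries made by the authors, made with affy, RMA and limma per the submitters' processing notes, which carry no versions. No genome build is given in the sources used here, and detection calls were not used. The arrays' number limits the precision.

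Of the non-control probe sets, 34945 are paired with 1 gene, 932 with several and 9160 with none. Symbols were updated through Entrez numbers. After 64 control probe sets were left out, limma 3.58.1 (R 4.3.3) fitted 1 mean per group over all 12 arrays, with eBayes (8 residual degrees of freedom) and Benjamini-Hochberg over 45037 probe sets, in 5 contrasts, with a call at an adjusted p under 0.05. Array weights used statmod 1.5.0. Gene lists were read through the brightest probe set of each gene. Promoters came from RefSeq and were aligned with Biopython 1.88, and plots were made in Python 3.11.15 (matplotlib 3.10.9).

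The members and the 15 lists were chosen with earlier results of these data known. All member probe sets are given. Of each list, up to 4 members with the smallest p in a contrast are named, with textbook partners (Il13ra2, Tmem219, Ptgdr2, Lgals3, Stab1, Aga) and Retnla, Arg1 and Mrc1, and for each called member the 3 genes most alike. Clca1 was chosen after its values were seen, and Muc5ac is given beside it. The cytokine genes Il4 and Il13 were also added after their values were seen. Same-numbered arrays deviated together in 3 of 18 pairs, so the numbers were not taken to pair samples. Alternatives were array medians subtracted, repeated quantile normalization, a filter at a mean of 5, eBayes with trend and robust, 1 probe set per gene, array weights, a fit on the contrast's groups alone, a replicate block and each array left out. Gene lists were also read without the 3 arrays that stand apart, an alternative chosen after seeing the data.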

Additional observations from a re-analysis of the deposited data

Results flagged for a closer look

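The Chil1 bleomycin arrays lay on opposite sides of the saline arrays in the 2 genotypes. All 3 KO bleomycin arrays lay above all 3 KO saline arrays, beside 12.2% of all probe sets. All 3 WT bleomycin arrays lay below all 3 WT saline arrays, beside 19%. The KO change itself was 0.30 ± 0.22 (SE) and was not called (limma, adjusted p = 0.572), so a rise in KO is not established. The tested difference, KO minus WT, was 1.22 on the log2 scale, with an adjusted p of 0.0675 over all probe sets (limma), so it did not pass. It passed with array weights (adjusted p = 0.0345), with 1 probe set per gene (adjusted p = 0.0394), without WT bleomycin replicate 1 (adjusted p = 0.0139) and without WT bleomycin replicate 2 (adjusted p = 0.0308). Over all alternatives its adjusted p ran from 0.0139 to 0.154.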

How the results depend on the processing

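Of the 11 family probe sets, 5 were called for bleomycin in WT; 8 with array weights, 2 with only the groups of the contrast, and 2 to 6 with 1 array left out. In KO 0 were called, 1 with array weights and 0 to 0 with 1 array left out. For the difference between the responses 0 were called, 2 with array weights (Chil1 and Chia1), 1 with 1 probe set per gene (Chil1) and 0 to 1 with 1 array left out. For KO against WT 3 were called after bleomycin (1 to 3 with 1 array left out) and 0 after saline (0 to 0). With the replicate block 5 were called in WT, 0 in KO, 0 for the difference and 2 after bleomycin; the block called 493 of all probe sets for the difference, against 892 without it. With array weights 13059 of all probe sets were called in WT (8346 in the reported fit), 2083 in KO (784), 2182 for the difference (892) and 1315 for KO against WT after saline (98). With 1 probe set per gene 5044 were called in WT; with only the groups of the contrast 2321 were called for KO against WT after bleomycin (3765) and 47 after saline (98). With 1 array left out these counts were 193 to 1027 in KO, 313 to 1096 for the difference, 1919 to 4332 after bleomycin and 49 to 115 after saline.

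Of the called changes, those of Chil1 and the brighter Chid1 probe set in WT and of Chil1 between genotypes after bleomycin kept their calls whichever array was left out. Chil1 lost its WT call with only the groups of the contrast (adjusted p = 0.0629), as did the shared probe set and the brightest Ctbs probe set. The lower Chid1 value in KO than in WT after bleomycin lost its call with medians subtracted (adjusted p = 0.0686), repeated quantile normalization (0.0789), the block (0.0711), eBayes with trend and robust (0.0647) and only the groups of the contrast (0.0834). No called change reversed. Uncalled values that changed sign were Chil3 in KO with repeated quantile normalization (-0.013); the middle Ctbs probe set for the difference with medians subtracted (0.038), repeated quantile normalization (0.063) and weights (0.017), between genotypes after bleomycin with weights (-0.043) and after saline with those 3 settings (-0.019, -0.023 and -0.060); and, after saline with weights, Chil1 (0.023) and Chit1 (-0.067). With 1 array left out, sign changes lay within these ranges: in WT the middle Ctbs probe set -0.198 to 0.037; in KO Chil3 -0.093 to 0.066, Chil4 -0.264 to 0.027, Chit1 -0.074 to 0.084 and the dimmer Chid1 probe set -0.067 to 0.122; for the difference the dimmest Ctbs probe set -0.407 to 0.059 and the middle one -0.139 to 0.097; after bleomycin Chil3 -0.221 to 0.150, the shared probe set -0.302 to 0.165 and the middle Ctbs probe set -0.118 to 0.117; after saline Chil1 -0.111 to 0.017, Chit1 -0.0053 to 0.140 and the middle Ctbs probe set -0.054 to 0.077. The causes were not tested.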

Other observations

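On WT bleomycin replicate 2, where Chil4 stood 4.45 log2 units above the next highest array, the next gene, Opcml, stood 0.95 above. Of the 6 largest such excesses over all genes and arrays, the other 5 were on WT saline replicate 1: Obp1a, Obp2a, 5430402E10Rik, Gm14743 and Lcn11, by 3.67, 3.36, 3.30, 3.24 and 3.22 log2 units.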
